A study of Mus musculus with 9 samples.

Results

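The genes described here encode nuclear subunits of the 5 complexes of mitochondrial oxidative phosphorylation, measured in lungs of mice that carry a human CFTR transgene and in lungs without it. Members were all probe sets whose annotation gave exactly 1 gene symbol and whose symbol began with Nduf (then a, b, c, s or v and a digit), Uqcr, Cox4 to Cox8 or Atp5, or was Sdha to Sdhd. This gave 147 of the 22690 probe sets of the array, for 78 genes. By symbol, 65 probe sets of 33 genes belonged to complex I, 7 of 4 genes to complex II, 15 of 8 genes to complex III, 32 of 16 genes to complex IV and 28 of 17 genes to complex V. The choice used names and no measured value, but it was made with earlier results of these data known. Assignment by name counts Ndufa4 with complex I, although the protein is known as a subunit of complex IV, and counts Cox7a2l, a factor that joins complexes into supercomplexes, with complex IV. The name rule also misses subunits with other symbols, such as Cyc1 of complex III and Ndufab1 of complex I. After a filter on dim probe sets, 135 members of 77 genes were tested and 12 were not, among them both probe sets of Cox7c.

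Lung total RNA was hybridised to Affymetrix mouse 430A arrays, 3 per genotype. HO lungs carried 2 alleles of SP-C-hCFTR, a transgene in which the promoter of the surfactant protein C gene (Sftpc) drives the human CFTR cDNA in respiratory epithelial cells. HE lungs carried 1 such allele, and WT lungs carried 0. All mice were adults of strain FVB/N, and the labels give normal mouse Cftr on both chromosomes in every group, except that WT replicate 3 has no genotype field. HO replicate 2 is titled and genotyped as homozygous, but its free-text description writes 1 transgenic allele. The comparison asks what added CFTR in these epithelial cells does to the RNA of the whole lung. Whether the triplicates were 3 animals is not stated in the labels, so the error used by each test is the scatter of these arrays, part of which may be technical. The transgene's own level was not analysed here.

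Oxidative phosphorylation passes electrons from NADH (complex I) and succinate (complex II) through ubiquinone to complex III, then through cytochrome c to complex IV, which reduces oxygen. Complexes I, III and IV pump protons across the inner mitochondrial membrane, and complex V lets them flow back to make ATP. Most subunits are encoded in the nucleus by genes used in every cell, and their transcripts often vary together. Several complex IV subunits have separate isoforms in heart and skeletal muscle, and Cox4i2 is an isoform known from the lung. In the lung, alveolar type II cells and club cells are rich in mitochondria.

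The RNA was that of lung: markers of alveolar type II cells summed to an intensity of 184000 to 204000 on the HO arrays, 180000 to 195000 on the HE arrays and 166000 to 211000 on the WT arrays, with 6 of 7 listed genes on the array. Every array had been scaled to the same trimmed mean of 1500. Between 4.29% and 5.53% of an array's values lay at the floor of 25.5. The 3′ to 5′ ratio was 1.07 to 1.39 for Actb and 0.768 to 0.885 for Gapdh. No array copied another, since any pair differed by a median absolute log2 difference of at least 0.145. Of 13576 probe sets tested with limma, 0 were called (Benjamini-Hochberg adjusted p under 0.05) between any pair of genotypes or by the F test over the 3, and 610, 422 and 348 had an unadjusted p under 0.05 in HO minus WT, HE minus WT and HO minus HE.

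The members' promoters were examined for shared letters, as a description apart from the array values. RefSeq promoters of build GRCm38.p6, a C57BL/6J assembly while these mice were FVB/N, were at hand for 64 of the 78 genes. Each covers 250 bases before to 50 bases after the transcription start. On both strands, 3 motifs known from promoters of respiratory genes were searched: GCGCATGCG for NRF1, CCGGAAG for the ETS factor GABPA and AAGATGGC for YY1. The NRF1 letters were in 7 of the 64 promoters (10.9%), against 4.1% of 6617 tested genes and 1.95% of all 27025 genes. The GABPA letters were in 17 (26.6%), against 20.2% of tested genes and 9.93% of all genes. YY1 letters were in 9 (14.1%), against 5.65% of tested genes and 3.19% of all genes. At least 1 of the 3 was present in 28 promoters (43.8%), against 27.4% of tested genes and 14.1% of all genes. Bases were not shared between different motifs in any member promoter, but the NRF1 letters overlap their own reverse complement where they form a palindrome, as in 4 member promoters. The members' promoters had a median GC content of 58.4%, against 52.8% over all genes. It was not computed over the tested genes alone. These matches are counts of letters and do not show that a factor is bound.

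By complex, letters of at least 1 motif stood in 11 of 30 promoters of complex I, 2 of 3 of complex II, 3 of 5 of complex III, 3 of 11 of complex IV and 9 of 15 of complex V. The YY1 letters stood in 6 promoters of complex I, in 3 of complex V and in 0 of the other complexes. Printed here 5′ to 3′ on the gene's strand, with motif letters in capitals, are Cox6a1, the widely used isoform of a complex IV subunit (chr5:115348909-115349208, minus strand), and Atp5k, a subunit of the membrane part of complex V (chr5:108434350-108434649, minus strand), which both hold the NRF1 palindrome and a GABPA motif. Sdhd, a membrane anchor of complex II whose probe set had the lowest p between HO and WT, holds 1 GABPA motif (chr9:50603800-50604099, minus strand). Cox8b, the muscle isoform of a complex IV subunit, holds none (chr7:140900397-140900696, minus strand). It was the member of lowest p over replicate numbers, though not called (adjusted p = 0.264, limma's F test).
Cox6a1: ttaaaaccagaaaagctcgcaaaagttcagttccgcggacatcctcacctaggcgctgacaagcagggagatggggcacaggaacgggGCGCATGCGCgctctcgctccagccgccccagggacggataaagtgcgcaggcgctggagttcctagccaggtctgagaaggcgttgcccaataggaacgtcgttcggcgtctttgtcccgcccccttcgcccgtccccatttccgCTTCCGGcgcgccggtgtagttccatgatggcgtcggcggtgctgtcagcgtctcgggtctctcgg
Atp5k: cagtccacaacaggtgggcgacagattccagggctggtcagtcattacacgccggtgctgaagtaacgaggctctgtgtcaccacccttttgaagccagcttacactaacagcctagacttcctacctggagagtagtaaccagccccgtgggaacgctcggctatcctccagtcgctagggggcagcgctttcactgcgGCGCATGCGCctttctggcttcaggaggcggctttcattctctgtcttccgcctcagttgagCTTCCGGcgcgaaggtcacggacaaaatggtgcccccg
Sdhd: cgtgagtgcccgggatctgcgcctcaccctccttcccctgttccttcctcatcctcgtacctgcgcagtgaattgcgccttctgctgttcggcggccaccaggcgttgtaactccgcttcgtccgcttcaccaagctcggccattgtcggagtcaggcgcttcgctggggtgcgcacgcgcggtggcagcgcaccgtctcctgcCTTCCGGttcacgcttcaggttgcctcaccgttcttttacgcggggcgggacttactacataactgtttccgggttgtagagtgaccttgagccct
Cox8b: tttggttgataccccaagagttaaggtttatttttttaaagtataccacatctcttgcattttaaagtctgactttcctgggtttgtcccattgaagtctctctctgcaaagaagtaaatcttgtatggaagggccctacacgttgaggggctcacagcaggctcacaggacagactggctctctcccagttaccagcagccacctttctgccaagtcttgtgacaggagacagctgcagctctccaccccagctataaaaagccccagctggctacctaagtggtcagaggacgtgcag

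Transcripts of the respiratory complexes were among the brightest of the array. Of the 147 member probe sets, 73 lay in the top 10% by mean signal, and the median member past the filter stood at percentile 91.2. Mean log2 signals of the 135 members ran from 8.98 to 14.96, with 32 above 13. Their spread over the 9 arrays was small, with a median SD of 0.18 on the log2 scale against 0.20 over all probe sets tested. The median standard error of a HO minus WT difference was 0.15 for members, which gives a 95% interval of about ±0.34 on the log2 scale.

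No member was called between genotypes. In HO minus WT, 83 of the 135 members were higher and 52 lower, with a median log2 difference of 0.04 and a range of -0.85 to 0.47. Over all probe sets tested, 48.8% were above 0 and the median was 0.00. In HE minus WT, 59 members were higher and 76 lower, with a median of -0.01, against 47.8% above 0 and a median of -0.01 over all probe sets. Both comparisons use the same WT arrays. In HO minus HE, 92 members were higher and 43 lower, with a median of 0.04, against 51.4% above 0 and a median of 0.01 over all probe sets. These medians were smaller than 0.12, the within-group SD of the array medians of the members. The counts of direction were unstable: without WT replicate 3, 51 members were higher in HO minus WT and 28 in HE minus WT, without HE replicate 1, 30 were higher in HE minus WT, and with each array centred on its median 99 were higher in HO minus WT and 81 in HE minus WT. As the RNA came from whole lung, fewer cells of a type and less RNA per cell cannot be told apart.

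At an unadjusted p under 0.05, 4 members stood out in HO minus WT, 1 higher and 3 lower. Of all 13576 probe sets, 0% were called after adjustment and 4.49% had such a p (1.69% higher, 2.81% lower). The lowest adjusted p of any member was 0.602. In HE minus WT there were 0 higher and 2 lower members against 3.11% of all probe sets (1.19% higher, 1.92% lower). In HO minus HE there were 0 higher and 3 lower, against 2.56% (1.16% higher, 1.4% lower). The lowest adjusted p was 1 in both. All 3 HO arrays lay outside the range of the WT arrays for 7 members (5.19%), 3 higher and 4 lower, against 8.88% of all probe sets (3.98% higher, 4.9% lower). For HE and WT this held for 2 members (1.48%), both higher, against 7.7% of all probe sets (3.25% higher, 4.45% lower). For HO and HE it held for 9 members (6.67%), 5 higher and 4 lower, against 6.66% (3.47% higher, 3.19% lower). With the replicate number as a block, 7 members had an unadjusted p under 0.05 in HO minus WT, against 5.95% of all probe sets, and the lowest adjusted p of a member was 0.826.

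**Figure D1:**
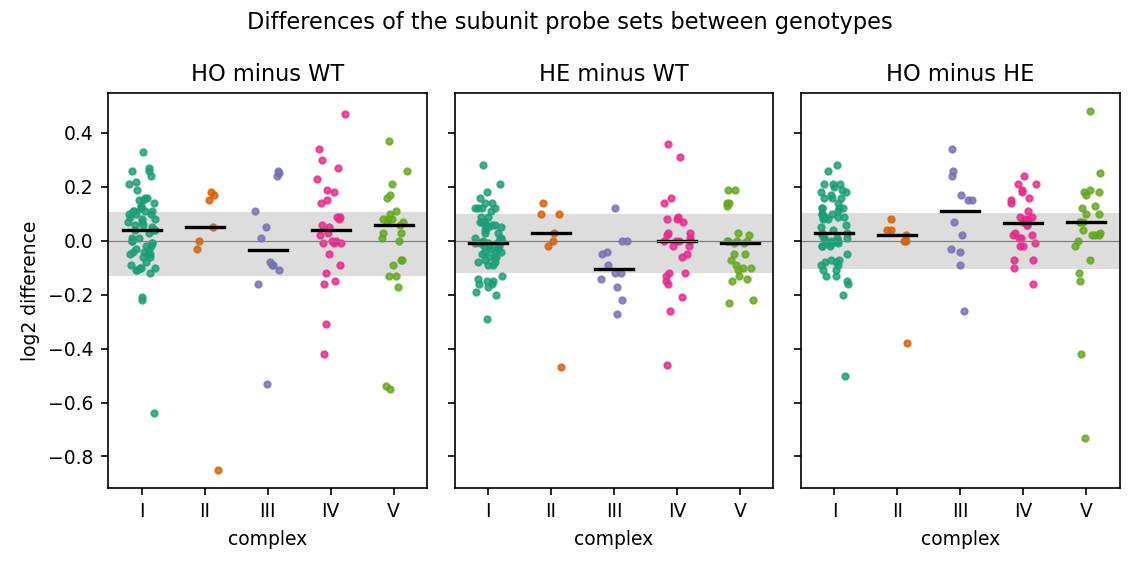
Log2 differences (vertical axis) of the 135 member probe sets by complex (horizontal axis) in HO minus WT, HE minus WT and HO minus HE; each point is a probe set, black bars are medians, and the grey band spans the 25th to the 75th percentile of all 13576 probe sets tested. Most members lie within the band or close to it, and the complex II point at -0.85 in HO minus WT is the Sdhd probe set 1437489_x_at.

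Complex I, the NADH dehydrogenase, had 39 of 63 members higher and 24 lower in HO minus WT, with a median of 0.04, and 29 higher and 34 lower in HE minus WT, with a median of -0.01. Ndufa3, an accessory subunit, was the 1 member higher at an unadjusted p under 0.05. Probe set 1428464_at read log2 signals of 13.20, 12.98 and 12.75 on the HO arrays, 12.85, 12.74 and 12.72 on the HE arrays and 12.74, 12.72 and 12.48 on the WT arrays. Every HO array lay above every WT array, the nearest pair being 12.75 and 12.74. The difference was 0.33 (SE 0.14, unadjusted p = 0.0459, adjusted p = 0.992 by limma). Its other probe set, 1452790_x_at, gave 0.21 and was measured on overlapping arrays. Ndufs7, a core subunit that carries an iron-sulphur cluster, showed the same order on 1451312_at: 12.55, 12.55 and 12.27 on HO arrays, 12.35, 12.37 and 12.28 on HE arrays, and 12.27, 12.20 and 12.18 on WT arrays. Both transgenic groups lay above the WT arrays, HO replicate 3 and WT replicate 1 both rounding to 12.27, with differences of 0.24 in HO and 0.12 in HE, while its other probe set, 1424313_a_at, gave 0.00 and -0.02. Ndufs5, an accessory subunit, differed by 0.26 in HO minus WT and by 0.28 in HO minus HE, with HO arrays at 10.13, 10.32 and 10.31, HE arrays at 10.03, 9.99 and 9.91 and WT arrays at 10.22, 9.82 and 9.93. HO and HE arrays did not overlap for Ndufs5, and WT replicate 1 lay among the HO arrays.

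Ndufa12, another accessory subunit of complex I, had 4 probe sets that disagreed. Probe set 1425919_at read 8.78, 8.53 and 9.29 on the HO arrays, 9.36, 9.32 and 9.42 on the HE arrays and 9.39, 9.40 and 9.74 on the WT arrays. HO replicates 1 and 2 lay well below the rest and HO replicate 3 just below the other groups, giving -0.64 in HO minus WT (SE 0.19, unadjusted p = 0.00519, adjusted p = 0.992) and -0.50 in HO minus HE. The other 3 Ndufa12 probe sets, all brighter, gave between -0.10 and 0.19 in HO minus WT. Without HO replicate 2 the difference on 1425919_at was -0.48. Ndufs8, a core iron-sulphur subunit with 6 probe sets, ranged from -0.12 to 0.16 in HO minus WT and from -0.13 to 0.28 in HE minus WT. Ndufs4, an accessory subunit whose loss causes a severe encephalopathy in mice, had 3 probe sets between -0.22 and -0.02 in HO minus WT. In HE minus WT, Ndufv2 ranged from -0.29 to 0.06 over 3 probe sets and Ndufb6 from 0.04 to 0.21 over 2. Ndufs1 gave -0.17 there.

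Complex II, the succinate dehydrogenase that also serves the tricarboxylic acid cycle, held the lowest p of all members. The 2 probe sets of Sdhd went different ways. On 1437489_x_at the log2 signals were 9.13, 8.85 and 9.17 on the HO arrays, 9.26, 9.34 and 9.70 on the HE arrays and 10.01, 10.04 and 9.66 on the WT arrays, with means of 9.05 ± 0.17, 9.43 ± 0.23 and 9.91 ± 0.21 (SD). All HO arrays lay below all HE arrays and all WT arrays, while HE replicate 3 lay just above WT replicate 3. The difference was -0.85 in HO minus WT (95% interval -1.22 to -0.49, 0.553-fold, unadjusted p = 0.00029, adjusted p = 0.602), -0.47 in HE minus WT (adjusted p = 1) and -0.38 in HO minus HE (adjusted p = 1). Leaving out arrays in turn moved the adjusted p of HO minus WT between 0.35 and 0.999. The brighter probe set 1428235_at read 11.42, 11.14 and 11.43 on HO arrays, 11.33, 11.21 and 11.38 on HE arrays and 11.22, 11.30 and 11.31 on WT arrays. Its groups overlapped, with differences of 0.05, 0.03 and 0.02. The suffix _x_at marks a probe set in which some probes also match other transcripts, and which transcript 1437489_x_at measured was not tested. For the other complex II subunits the 5 probe sets gave between -0.03 and 0.18 in HO minus WT: Sdha, the flavoprotein that binds succinate, gave 0.18 and 0.17, Sdhb, the iron-sulphur subunit, gave 0.00, and Sdhc, the second membrane anchor, gave -0.03 and 0.15. On Sdha 1426689_s_at the HO arrays read 12.25, 12.21 and 12.18, the HE arrays 12.16, 12.34 and 12.03 and the WT arrays 12.00, 12.09 and 12.03, so that HO and WT did not overlap.

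Complex III, the cytochrome bc1 complex, had 6 of 12 members higher and 6 lower in HO minus WT, with a median of -0.04, and 3 higher and 9 lower in HE minus WT, with a median of -0.11. No member of this complex had an unadjusted p under 0.05 in any comparison. Uqcrfs1, the Rieske iron-sulphur protein, differed by 0.24 in HO minus WT, with HO arrays at 12.00, 11.78 and 11.68, HE arrays at 11.71, 11.62 and 11.42 and WT arrays at 11.65, 11.75 and 11.34. The groups overlapped. Uqcr11, a small subunit, gave 0.25 in HO minus WT and 0.34 in HO minus HE. Uqcr10, another small subunit, gave -0.53 on the dim probe set 1434341_x_at (95% interval -1.12 to 0.06) and -0.16 on the brighter 1424364_a_at. Uqcrb, which lies near the ubiquinone site, was higher in every HO array than in any HE array on 1416337_at, at 11.62, 11.90 and 11.46 in HO against 11.43, 11.44 and 11.32 in HE, but gave -0.04 in HO minus HE on 1455997_a_at.

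Complex IV, cytochrome c oxidase, had 18 of 28 members higher and 10 lower in HO minus WT, with a median of 0.04, and 14 higher and 14 lower in HE minus WT, with a median of 0.00. Cox8c, an isoform known from testis, read 10.94, 10.76 and 10.66 on the HO arrays, 10.72, 11.22 and 10.89 on the HE arrays and 10.99, 11.46 and 11.15 on the WT arrays. All HO arrays lay below all WT arrays, and the difference was -0.42 (SE 0.17, unadjusted p = 0.0317, adjusted p = 0.992). Cox5b, a regulatory subunit with 5 probe sets past the filter, again showed disagreement between probe sets. The dimmest, 1436149_at, gave -0.31 in HO minus WT and -0.46 in HE minus WT, with HO arrays at 8.94, 9.23 and 8.97, HE arrays at 8.70, 8.81 and 9.17 and WT arrays at 9.03, 9.57 and 9.45. HE replicate 3 and WT replicate 1 overlapped there. The other 4 Cox5b probe sets gave 0.00 to 0.30 in HO minus WT and 0.07 to 0.16 in HE minus WT. Cox4i1, the widely used isoform of a regulatory subunit, gave 0.27 and 0.03, and the lung isoform Cox4i2 gave -0.01 and -0.21, in HO minus WT and HE minus WT. Cox4i2 read 10.86, 11.00 and 10.83 on HO arrays, 10.53, 10.89 and 10.65 on HE arrays and 11.13, 10.59 and 10.99 on WT arrays, with all groups overlapping. Cox6b2, another isoform known from testis, read 9.92, 10.07 and 10.01 on HO arrays, 9.77, 9.81 and 9.90 on HE arrays and 10.07, 9.35 and 10.05 on WT arrays. Its HO arrays lay above its HE arrays, and WT spanned both.

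Complex V, the ATP synthase, had 16 of 25 members higher and 9 lower in HO minus WT, with a median of 0.06, and 9 higher and 16 lower in HE minus WT, with a median of -0.01. Atp5mpl, a small proteolipid of the membrane part, gave 0.37 in HO minus WT (95% interval -0.01 to 0.74), with HO arrays at 12.65, 12.78 and 12.41, HE arrays at 12.46, 12.30 and 12.54 and WT arrays at 12.07, 12.59 and 12.06. WT replicate 2 lay among the HO arrays. The catalytic subunit Atp5b gave 0.16 in HO minus WT and 0.14 in HE minus WT, and Atp5a1, which forms the ring of the catalytic head with it, gave 0.07 and 0.01 in HO minus WT on its 2 probe sets. Atp5k, whose promoter holds the NRF1 palindrome, had 3 probe sets at -0.55, -0.54 and 0.03 in HO minus WT. On 1450640_x_at the HO arrays read 12.44, 12.46 and 12.09, the HE arrays 12.52, 13.50 and 13.16 and the WT arrays 13.47, 12.21 and 12.93. Every HO array lay below every HE array there, a difference of -0.73 (95% interval -1.40 to -0.05, adjusted p = 1), and WT replicate 2 lay among the HO arrays. On 1422525_at the HO arrays read 12.91, 12.52 and 13.80, the HE arrays 13.81, 13.18 and 13.49 and the WT arrays 13.92, 13.66 and 13.29, so that HO replicate 3 lay with the other groups. The remaining probe set, 1434053_x_at, gave 0.13 in HO minus HE. Atp5g1, a gene of the proton-carrying c ring, and Atp5j2, a membrane subunit, were higher in every HO than in any HE array, by 0.19 on 1416020_a_at and by 0.25 on 1416269_at. The 2 probe sets of Atp5o gave -0.23 and -0.22 in HE minus WT, and 0.10 and 0.48 in HO minus HE.

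**Figure D2:**
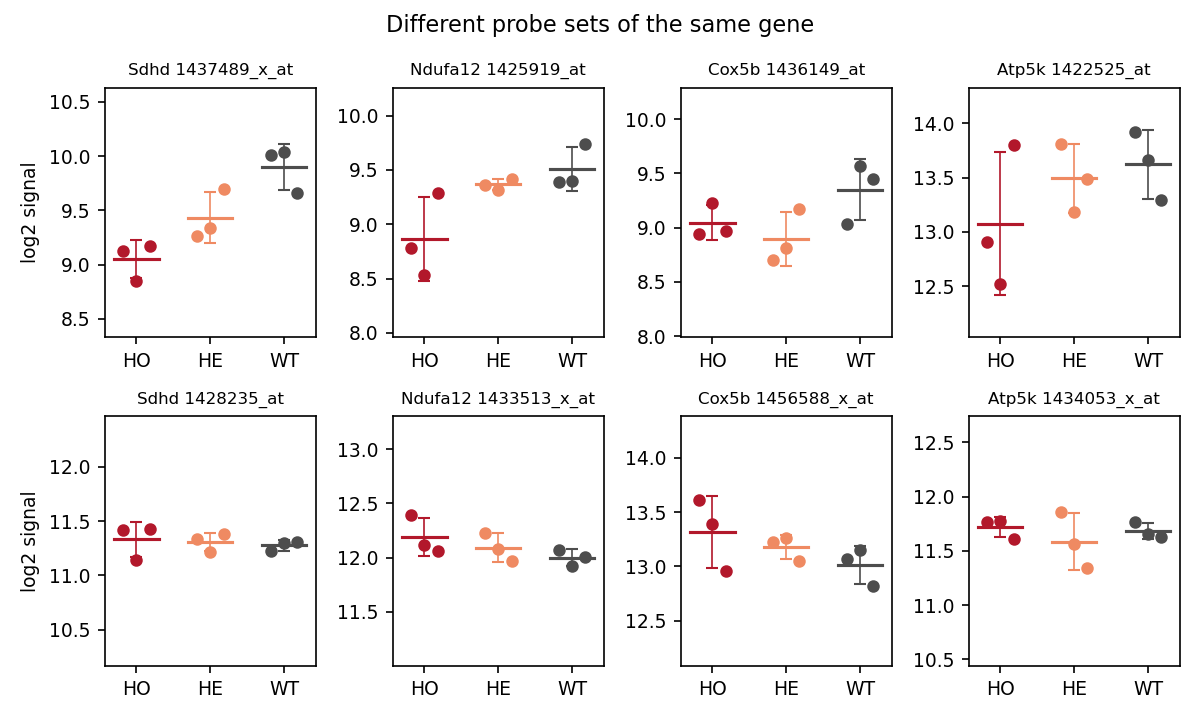
Log2 signal (vertical axis, each panel spanning the same range in log2 units) of 2 probe sets for each of Sdhd, Ndufa12, Cox5b and Atp5k on the HO, HE and WT arrays. Points are arrays, horizontal bars are means and error bars are SD (n = 3); in the upper row the HO mean lies below the WT mean for all 4 genes (differences of -0.85, -0.64, -0.31 and -0.55), and in the lower row the probe set with the highest difference of the same gene gives 0.05, 0.19, 0.30 and 0.03.

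Among genes with several probe sets, opposite signs were common, but wide gaps were few. Of 39 genes with several probe sets past the filter, 22 had probe sets of opposite sign in HO minus WT, with a median gap of 0.17 between the highest and the lowest. This gap was near 0.15, the median standard error of a member's HO minus WT difference. The same share over all genes of the array was not counted. The gap was over 0.5 for 4 genes, which were Sdhd, Ndufa12, Cox5b and Atp5k, and in each of them a probe set below 0 stood against 1 or more above 0. In HE minus WT 21 genes had opposite signs and 1, Cox5b, had a gap over 0.5. With the 26 members of suffix _x_at left out, 69 of 109 members were higher in HO minus WT and the median was 0.05.

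The members also moved together from array to array. The median over the 135 members, relative to the mean of the 9 arrays, was 0.08, 0.08 and -0.06 on HO arrays 1 to 3, 0.11, -0.11 and -0.09 on HE arrays, and 0.07, 0.11 and -0.18 on WT arrays. Replicates numbered 1 were high in all genotypes, replicates numbered 3 were low in all genotypes, and replicates numbered 2 were high in HO and WT and low in HE. Over all probe sets tested the array medians were 0.00 to 0.02. All 5 complexes were high on replicates numbered 1 and low on replicates numbered 3; on HO and WT replicate 2, complex II was at -0.03 on both while the other 4 complexes were at 0.07 to 0.18. The replicate number goes with the first number of the source names, 3, 9 and 11 for replicates 1, 2 and 3, and the labels do not say what that number stands for.

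**Figure D3:**
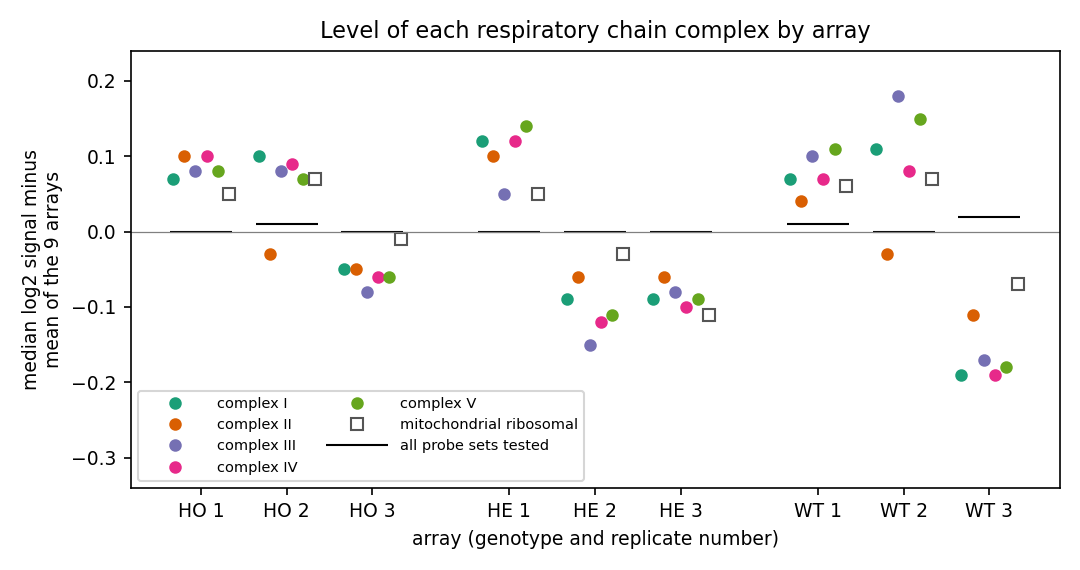
Median log2 signal of each complex relative to the mean of the 9 arrays (vertical axis) on each HO, HE and WT array (horizontal axis). Coloured points are complexes I to V, open squares the 102 probe sets of mitochondrial ribosomal proteins and black lines all 13576 probe sets tested; all 5 complexes lie below 0 on replicates numbered 3 of every genotype and on HE replicate 2.

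Across genotypes, 122 of the 135 members were lower in replicates numbered 3 than in those numbered 1, and 13 were higher. The median log2 difference was -0.20. Over all probe sets tested the median was 0.00 and 49.9% were above 0. Complexes I to V had medians of -0.19, -0.13, -0.18, -0.21 and -0.21, and of the 25 members of complex V, 0 were higher. Within single genotypes, 96 members were lower in HO, 104 in HE and 120 in WT. Of the 135 members, 72 (53.3%) were lower in replicate 3 than in replicate 1 of all 3 genotypes, against 17.8% of all probe sets. Replicates numbered 3 were also below those numbered 2 for 112 members, with a median of -0.13 (51.7% of all probe sets were above 0), but in HE alone 59 were lower and 76 higher. Replicates numbered 2 minus those numbered 1 had a median of -0.07, with 41 members higher (49.9% of all probe sets). The count of 13 was sensitive to single arrays, being 28 without WT replicate 3, 23 without HE replicate 3 and 21 without HE replicate 1. Without WT replicate 2 or WT replicate 3, 40 members in place of 23 were higher in number 3 minus number 2, and without HE replicate 2, 71 were higher in number 2 minus number 1 with a median of 0.01. No single member was called by limma's F test over the replicate numbers (2 of 13576 probe sets were called, 0.0147%), the lowest adjusted p of a member being 0.264. At an unadjusted p under 0.05 there were 16 members (11.9%), against 12% of all probe sets.

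**Figure D4:**
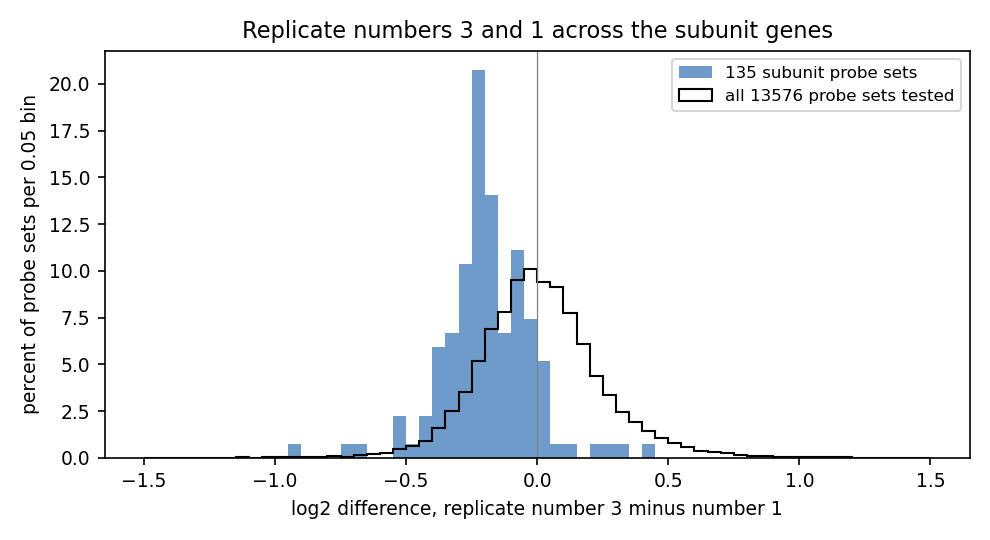
Distribution of the log2 difference between replicates numbered 3 and those numbered 1 (horizontal axis), as percent of probe sets in each bin of 0.05 (vertical axis), for the 135 member probe sets (filled) and for all 13576 probe sets tested (line). The members centre on -0.20 and the whole array on 0.00.

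Other measures followed this level in part. The Actb ratio of 3′ to 5′ probe sets was 1.35, 1.39 and 1.22 on HO arrays, 1.22, 1.07 and 1.26 on HE arrays and 1.30, 1.29 and 1.18 on WT arrays. The Gapdh ratio was 0.885, 0.885 and 0.793 on HO arrays, 0.804, 0.768 and 0.828 on HE arrays and 0.845, 0.799 and 0.775 on WT arrays. Both were lowest on HE replicate 2 and WT replicate 3. Within HE both were higher on replicate 3 than on replicate 1, against the order of the members. Club cell markers, all 4 listed genes of which were measured, had medians of 0.13, 0.16 and -0.18 on HO arrays, 0.09, -0.11 and -0.04 on HE arrays and 0.20, 0.06 and -0.27 on WT arrays. Their summed intensity was 160000 to 201000 in HO, 168000 to 191000 in HE and 149000 to 204000 in WT. Alveolar type II markers, 6 of 7 listed genes, had medians of 0.05, 0.09 and -0.08 on HO arrays, -0.01, -0.15 and 0.03 on HE arrays and 0.13, 0.08 and -0.19 on WT arrays. On the HE arrays, the type II markers were higher on replicate 3 than on replicate 1, again unlike the members. Ciliated cell markers, 4 of 6 listed genes on the array and 3 past the filter, had medians of 0.11, -0.23 and 0.00 on HO arrays, 0.57, -0.05 and -0.22 on HE arrays and 0.44, -0.05 and 0.13 on WT arrays. Replicate 1 was the highest in each genotype for this list, and all 3 probe sets were lower in replicates numbered 3 than in those numbered 1, with a median of -0.40 and 2 at an unadjusted p under 0.05 over the numbers. Their summed intensity was 18700 to 21900 in HO, 18500 to 21900 in HE and 18100 to 24600 in WT. Neutrophil and red cell markers had differences above 0 between these numbers, with a median of 0.40 over 4 probe sets, 3 of them higher, and 0.49 on 1 probe set. No gene of the club, type II or ciliated lists was at the floor. The part of these measures in the result was not tested. In the tenth of probe sets with the highest mean signal, a set chosen after seeing the data because members are bright, the array medians were between -0.06 and 0.05, and 895 of its 2262 probe sets were higher in replicates numbered 3 than in those numbered 1, with a median of -0.04.

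The members of lowest p over the replicate numbers were Cox8b, Cox7a1, Cox5a (1439267_x_at), Ndufa5 (1417285_a_at), Cox6a2 and Ndufb2 (1448483_a_at), none of them called. Of these, Cox8b, Cox7a1 and Cox6a2 are the heart and skeletal muscle isoforms of complex IV, and they were highest on replicates numbered 1. Cox8b read 10.16, 9.60 and 9.43 on HO arrays, 10.24, 9.06 and 9.42 on HE arrays and 9.68, 8.92 and 9.19 on WT arrays. Replicate 1 was the highest array of each genotype, and HO minus WT was 0.47 with overlapping groups. Cox7a1 read 9.65, 8.82 and 9.08 on HO arrays, 9.94, 8.71 and 8.96 on HE arrays and 9.95, 9.30 and 8.74 on WT arrays, again with replicate 1 highest in each genotype. For Cox6a2 the values were 11.44, 10.56 and 10.70 on HO arrays, 11.37, 10.57 and 10.77 on HE arrays and 11.15, 11.04 and 11.01 on WT arrays, so that replicate 1 stood out in HO and HE and less in WT. On the probe sets given, Cox5a, Ndufa5 and Ndufb2, subunits used in all tissues, were instead lowest on replicates numbered 3 in every genotype, with differences of -0.70, -0.42 and -0.52 from those numbered 1. Their other probe sets gave smaller differences, of -0.33 and -0.23 for Cox5a (1415933_a_at, 1448153_at), -0.20 for Ndufa5 (1417286_at) and -0.36 for Ndufb2 (1416834_x_at). On these, replicate 3 was not the lowest array in every genotype: Cox5a 1415933_a_at was lowest on replicate 2 in HO, Cox5a 1448153_at on replicate 2 in WT, and Ndufa5 and Ndufb2 on replicate 2 in HE.

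Heart muscle markers, 12 of 12 listed genes being on the array and 9 past the filter, had medians of 0.51, -0.20 and -0.18 on HO arrays, 0.44, -0.27 and -0.13 on HE arrays and -0.04, 0.04 and -0.03 on WT arrays. Their summed intensity was 28500 to 48300 in HO, 27800 to 46800 in HE and 32200 to 35400 in WT, and none was at the floor. Replicate 1 was thus high in HO and HE for the cardiac markers and for Cox6a2, while Cox7a1 read 9.94 on HE replicate 1 and 9.95 on WT replicate 1. Of 8 skeletal muscle markers on the array 1 passed the filter, and the list summed to 1240 to 1970 in HO, 1210 to 2210 in HE and 1570 to 1880 in WT. Fat markers, 6 of 8 on the array and 3 past the filter, summed to 2010 to 7860 in HO, 2480 to 7660 in HE and 4340 to 5750 in WT. Their medians were 0.87, -1.82 and 0.18 on HO arrays, 0.74, -1.08 and 0.33 on HE arrays and 0.36, -0.15 and 0.35 on WT arrays. They were thus lowest on HO and HE replicate 2. Replicate 1 was the highest in each genotype, as for Cox8b and Cox7a1, though in WT it was close to replicate 3. The part of these tissues in the isoforms' values was not tested. On the brightest probe set of each gene, Cox6a1, Cox7a2 and Cox8a gave -0.20, -0.21 and -0.21 between replicates numbered 3 and 1. Their muscle isoforms Cox6a2, Cox7a1 and Cox8b moved more, by -0.49, -0.92 and -0.68. Other pairs went the other way: Cox4i1 and Cox6b1 gave -0.35 and -0.13, against -0.02 for Cox4i2 and 0.07 for Cox6b2. Cox8c gave 0.02. On 1417417_a_at, Cox6a1 read 14.33, 14.22 and 14.15 in HO, 14.39, 14.10 and 14.17 in HE and 14.30, 14.22 and 14.09 in WT.

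**Figure D5:**
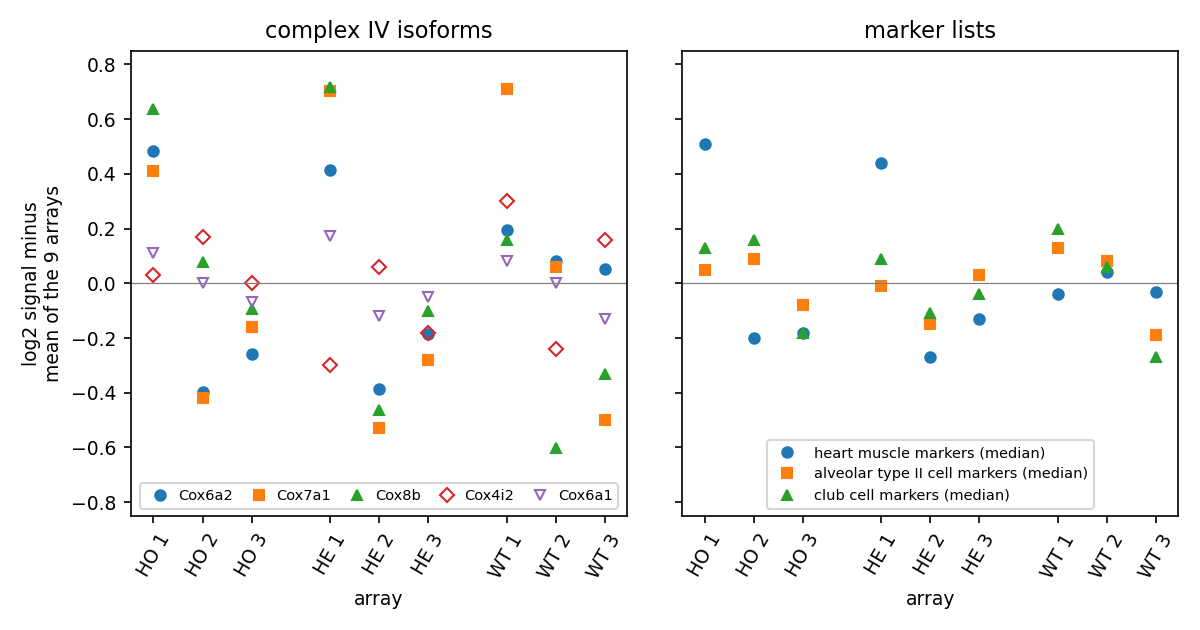
Log2 signal relative to the mean of the 9 arrays (vertical axis) on each HO, HE and WT array (horizontal axis), for the complex IV isoforms Cox6a2, Cox7a1 and Cox8b (filled, heart and skeletal muscle), Cox4i2 and Cox6a1 (open) in the left panel, and for the medians of 3 marker lists in the right panel. The heart muscle list stands at 0.51 on HO replicate 1 and 0.44 on HE replicate 1 and between -0.27 and 0.04 on the other 7 arrays.

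Genes around the respiratory chain had 0 calls between genotypes as well. Of the mitochondrial ribosomal proteins, which translate the subunits encoded in mitochondrial DNA, 49 of 102 probe sets were higher and 53 lower in HO minus WT, with a median of -0.01, and 69 were higher and 33 lower in HO minus HE, with a median of 0.06. Their array medians followed the subunits in part, at 0.05, 0.07 and -0.01 on HO arrays, 0.05, -0.03 and -0.11 on HE arrays and 0.06, 0.07 and -0.07 on WT arrays. Between replicates numbered 3 and 1 their median was -0.08, with 31 of 102 probe sets higher. Of the lists given next, the tricarboxylic acid cycle genes had -0.09 (6 of 18 higher) and the assembly factors -0.10 (9 of 26). Electron carriers and transporters had -0.08 (6 of 31) and regulators 0.05 (14 of 23). Of the tricarboxylic acid cycle genes other than Sdh, 13 of 18 probe sets were higher and 5 lower in HO minus WT, with a median of 0.06, and 9 were higher and 9 lower in HE minus WT. Citrate synthase (Cs), which opens the cycle, read 12.01, 11.89 and 11.72 on HO arrays, 11.95, 11.69 and 11.86 on HE arrays and 11.69, 11.62 and 11.69 on WT arrays on 1450667_a_at. Every HO array lay above every WT array for Cs there, a difference of 0.20 (adjusted p = 0.992), and its other probe set gave 0.17 with overlapping arrays.

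Assembly factors of the complexes were higher for 11 of 26 probe sets and lower for 15 in HO minus WT, with a median of -0.05. Timmdc1, a factor that builds the membrane arm of complex I, gave -0.42, with HO arrays at 9.36, 8.90 and 9.54, HE arrays at 9.61, 9.49 and 10.08 and WT arrays at 9.72, 9.69 and 9.63. The HO arrays lay below the WT arrays, and the adjusted p was 0.992. The list of electron carriers and transporters also holds Cox7a2l, a member counted above with complex IV, and the subunits Cyc1 and Ndufab1. It had 14 of 31 probe sets higher and 17 lower, with a median of -0.01. Vdac1, the main pore of the outer mitochondrial membrane, gave the widest difference of that list on 1437192_x_at, 0.78 (SE 0.30, adjusted p = 0.992), with HO arrays at 13.32, 13.34 and 12.59, HE arrays at 12.55, 12.56 and 13.17 and WT arrays at 12.73, 12.55 and 11.63. WT replicate 3 was far below the rest, and HO and WT overlapped. The other 3 Vdac1 probe sets past the filter did not share this difference, with -0.02 on 1415998_at, 0.08 on 1436992_x_at and -0.23 on the dim 1437947_x_at. Among regulators of mitochondrial genes 12 of 23 probe sets were higher and 11 lower, with a median of 0.01. Differences on these probe sets ran from -0.71 to 0.35, and 0 had an unadjusted p under 0.05 by limma. Hcfc1 (1421972_s_at) had the lowest p of this list and Yy1 the next. Yy1 gave 0.24 on 1435824_at. HO arrays read 11.96, 11.79 and 11.74, HE arrays 11.60, 11.93 and 11.89 and WT arrays 11.59, 11.54 and 11.65. Every HO array lay above every WT array, as for 3.98% of all probe sets, and the adjusted p was 0.992.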

How the data were processed

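Lung total RNA of 9 samples was hybridised to 1 array each. The authors deposited 1 linear intensity per probe set and array. From the values, every array had been scaled to one trimmed mean; the summarising software is not given here by any label or header. The deposited scaling was kept. Values below 25.5, the 5th percentile, were set to that floor before log2 was taken. Left out were 64 control probe sets and those whose mean over the 9 arrays was under the 40th percentile (8.90 in log2), which kept 13576. Symbols came from the platform annotation, in which 20393 probe sets had 1 symbol, 691 several (not named) and 1555 none. Of those with 1 symbol, 20364 matched RefSeq genes of GRCm38.p6.

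Groups came from the sample titles. Group means were fitted to all 9 arrays with limma 3.58.1 (lmFit, eBayes) in R 4.3.3, with Benjamini-Hochberg adjustment over the 13576 probe sets at a threshold of 0.05. Replicate numbers were compared in a model of genotype plus number. The members and all lists were chosen with earlier results of these data known. Lists are described by counts and medians. The naming rule took the 10 members of lowest p in each comparison, the 2 of lowest p per complex and all probe sets of Sdhd and of the tissue isoforms. It also took the 6 of lowest p over replicate numbers, genes with probe sets over 0.5 apart, and up to 2 of lowest p in each other list. Not all genes and comparisons that it took are described above. Cs and Yy1 are given by that rule. Other genes are examples of a role or of the count beside them, chosen after their values were seen.

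Deviations from the group means of arrays with the same number correlated at 0.19, 0.14 and 0.28 between HO and WT, at 0.30, 0.05 and 0.04 between HE and WT and at 0.16, 0.15 and 0.03 between HO and HE. Every correlation was over 0.1 between HO and WT only. Each number is carried by an array of every genotype, and so few weak correlations cannot decide which groups are paired. The main fit left the number out. The fits were tested on simulated data with independent errors, which real arrays need not have. For HO minus WT, 0% of simulated log2 changes of 0.5 were called, 89.6% of changes of 1 and 98.9% of changes of 1.5. The absence of called members thus says little about differences of 0.5 or less. The number of arrays limits the precision. Alternatives were other normalizations, filters and floors, 1 probe set per gene, the number as a block, the arrays of 2 groups only, HO replicate 2 counted as HE and each array left out in turn.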

Additional observations from a re-analysis of the deposited data

How the results depend on the processing

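No member was called under any alternative run, and the lowest adjusted p of a named member was 0.35, without WT replicate 3. Of 724 alternative values of 38 named differences, 719 kept their direction and side of the threshold. Most of these differences were picked for a low p on the same arrays, and none was called in the main fit. The count thus does not measure how stable the members are. The 5 that turned belong to Sdhd 1428235_at, whose differences are near 0: HE minus WT was -0.01 under the other label of HO replicate 2 and -0.01 to 0.08 with single arrays left out, and HO minus HE ran from -0.03 to 0.12 with single arrays left out. The cause was not tested. Over all 13576 probe sets, the 2 called over replicate numbers became 1 with quantile normalization, 1 with median centring, 1 with the filter at the 60th percentile and 1 with 1 probe set per gene. They became 0 with no filter, 0 when HO replicate 2 was put with HE, 0 without the _x_at probe sets (an alternative chosen after seeing the data) and 0 to 1 with single arrays left out. With no filter, 2 probe sets were called in HE minus WT, 2 in HO minus HE and 2 over genotypes. Leaving out single arrays gave 0 to 1 calls in HO minus WT, HE minus WT, both transgenic groups minus WT and over genotypes, the 1 coming without WT replicate 1.

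Member medians ran from -0.04 to 0.09 in HO minus WT, -0.11 to 0.05 in HE minus WT and 0.02 to 0.12 in HO minus HE with single arrays left out, and the number 3 minus number 1 median from -0.24 to -0.15 (alternatives for the replicate numbers were chosen after seeing the data). Under the replicate block 0 probe sets were called in HO minus WT and the member median was 0.04; the block changed no call, and moved the members at an unadjusted p under 0.05 to 7 in HO minus WT. That count in HO minus WT was 2 to 9 with single arrays left out (9 without HO replicate 3, 7 without WT replicate 1, 2 without HO replicate 2), and 1 when that array was put with HE. With 3 arrays a group, the median 95% interval of a member was ±0.34 before any adjustment, and larger differences can also miss the adjusted threshold.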
